A study of Mus musculus with 4 samples.

Results

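The kinesin heavy chain family was taken as every gene whose symbol starts with Kif followed by a digit or the letter c and that held at least 20 UMIs over the 4 libraries. A UMI (unique molecular identifier) marks 1 captured transcript, and UMIs were counted for this rule in barcodes with more than 1000 detected genes and less than 10% mitochondrial UMIs. Of 32285 genes in the files, 44 symbols matched and 43 passed. *Kif12*, with 5 UMIs, was left out, and the members just inside the limit were *Kif28* with 40 and *Kif16bos* with 56. At the other end stood *Kif5b* with 106388, *Kif3a* with 92293 and *Kif2a* with 90030 UMIs. Of the members, 41 encode kinesin heavy chains. *Kif1bp* encodes the KIF1-binding protein, which is no motor, and *Kif16bos* is an opposite-strand RNA whose gene lies beside *Kif16b*. *Cenpe*, a kinesin of the centromere, does not carry the Kif stem and is described with the companion lists.

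Kinesins are motor proteins that walk along microtubules or take them apart at their ends. In dividing cells a set of them builds the spindle, moves chromosomes and completes cytokinesis, and transcripts of that set are known to follow the cell cycle. Other kinesins carry organelles and vesicles, or serve cilia and the sperm flagellum. In the testis, dividing spermatogonia give rise to spermatocytes, which stay joined by intercellular bridges, and the flagellum is built only after meiosis.

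Testes came from C57BL/6N pups at postnatal day 15 (P15), 2 of them wild type and 2 *Meioc*-null through the *Meioc*tm1.1Dpc allele, with 1 testis per pup and 1 littermate pair per batch. All 4 pups were also heterozygous for *Hspa2*tm1Dix and homozygous for the *ROSA26*-tdTomato reporter, whose stop cassette was intact, so these alleles are shared by the controls. MEIOC, a partner of the RNA-binding protein YTHDC2, acts as spermatogenic cells pass from mitosis to meiosis. The interstitial supernatant was discarded during dissociation, which limits the Leydig cells.

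The files held 11986 to 16486 barcodes and 158291903 to 190455307 UMIs per library, of which 5644 to 7505 cells per library remained after filtering. Any pair of libraries shared 7 to 16 cell barcodes. Germ cells formed 11 clusters, numbered along a tree from the cluster highest in markers of undifferentiated spermatogonia. By their markers, cluster 1 was undifferentiated spermatogonia-like, clusters 2 to 6 differentiating spermatogonia-like, clusters 8 to 10 early spermatocyte-like and cluster 11 pachytene spermatocyte-like. Cluster 7, led by *Pparg* and *Stra8*, stayed unnamed because its scores for differentiating spermatogonia (0.464) and early spermatocytes (0.439) lay close together. Cluster 11 held 298 and 377 wild-type cells and 0 *Meioc*-null cells, so the genotypes could be compared in clusters 1 to 10 only. The clusters were made from wild-type cells alone, and *Meioc*-null cells were placed by their nearest wild-type cells. The paper clustered both genotypes together and assigned some *Meioc*-null cells to pachytene spermatocytes. The 0 holds for the placing used here. Beside the germ cells stood Sertoli-like, Leydig-like and peritubular myoid-like cells and 2 unnamed classes, A and B. Class A was led by *Clec3b*, *Gsn* and *Dpt*, and the shallow class B by *Gng13*, *Crabp1* and *Psmb10*, with *Sohlh1* further down. Macrophage markers (6 genes) in class B summed to 21.9 and 80.9 UMIs per 1000000 for the wild-type libraries. The *Meioc*-null libraries had 461 and 2718. Of these markers, 0 were detected in 25% or more of the wild-type cells of class B. In cluster 7 *Meioc* itself was counted at 619 and 680 UMIs per 1000000 in wild type and 664 and 647 in the *Meioc*-null libraries, so its count in this 3′ assay gave no check of the genotype labels. It was called higher in *Meioc*-null in cluster 8 (640.2 and 603 against 821 and 793, edgeR adjusted p = 0.0428) and in cluster 9 (493 and 502 against 738 and 824, adjusted p = 0.000236).

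Levels below are UMIs of a gene per 1000000 UMIs in the cells of 1 cluster of 1 library (CPM), given for wild-type replicates 1 and 2 in that order unless stated otherwise. They are sums over cells, so fewer expressing cells and fewer transcripts per cell cannot be told apart. Levels along the clusters are a description with no test, because the clusters were made from the same cells. Exons of *Kif28*, *Kif17*, *Kif1c* and *Kif27* overlap another gene on the same strand, so the counts of these 4 members are uncertain. Of the 41 heavy chains, 9 had their highest wild-type mean in cluster 8, 8 in cluster 5, 5 in cluster 1, 4 each in clusters 2, 4 and 11, 3 in cluster 3, 2 in cluster 6 and 1 each in clusters 9 and 10. Cluster 7 was the peak of 0 heavy chains. Some of these peaks had libraries that overlapped those of the next highest cluster, and that of *Kif28* stood at only 0.0 and 0.170 CPM.

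The motors of the spindle and chromosomes were highest in the late spermatogonial clusters. Their summed level over 11 genes was 464 and 444 CPM in cluster 1 and 1076 and 1023 in cluster 5. It was lower in cluster 7 (704 and 713), higher again in cluster 8 (977 and 979) and low in cluster 11 (513 and 532). *Kif11*, the motor that pushes spindle poles apart, stood at 222 and 199.8 CPM in cluster 5, at 76.6 and 70.6 in cluster 7 and at 114 and 112 in cluster 8. Wild-type *Kif11* thus had a dip in cluster 7. *Kif15*, which also helps to keep the spindle bipolar, peaked in cluster 5 at 211 and 218 CPM and was lowest in cluster 1 at 40.0 and 39.5. *Kif22*, a chromokinesin that pushes chromosome arms away from the poles, peaked in cluster 5 at 108 and 84.4 CPM and was lowest in cluster 7 at 28.1 and 23.1.

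*Kif2c*, which takes microtubules apart at centromeres, was highest in cluster 4 at 102 and 108 CPM and lowest in cluster 7 at 30.4 and 24.9. *Kif18b*, a regulator of astral microtubule length, peaked in cluster 5 at 25.0 and 26.8, overlapping with cluster 4, and was also lowest in cluster 7, at 5.54 and 4.91. *Kif11*, *Kif22*, *Kif2c* and *Kif18b* therefore shared the low level of cluster 7. *Kif18a*, which aligns chromosomes at the metaphase plate, and *Kif2a*, a depolymerase of spindle poles, departed from this pattern. *Kif18a* was highest in cluster 8 at 105 and 111 CPM, and *Kif2a* was highest there too, at 369 and 379, and lowest in cluster 2 at 138 and 127. *Kif2b*, a relative of *Kif2a*, reached only 1.37 and 2.35 CPM in cluster 10, on 5 and 20 UMIs. The minus-end motor *Kifc1*, which focuses spindle poles, was highest in cluster 5 at 43.9 and 33.9 CPM. Its close relative *Kifc5b* was highest in cluster 9 at 30.5 and 20.3, with libraries that overlapped those of cluster 10. The near-identical sequences of this pair can share reads, so their separate levels are uncertain.

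*Kif4*, a chromokinesin that acts on chromosome arms and the central spindle, is the only member on the X chromosome (GRCm38 chromosome X, 100625737 to 100727214, plus strand). Its level was 116 and 121 CPM in cluster 5, then 23.0 and 24.7 in cluster 10 and finally 1.37 and 0.942 in cluster 11, where it rested on 19 and 13 UMIs. The share of all X-linked genes was low in the same clusters. X-linked genes made up 2.84 and 2.82% of wild-type UMIs in cluster 9, but 1.51 and 1.55% in cluster 10 and only 0.173 and 0.222% in cluster 11.

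**Figure D1:**
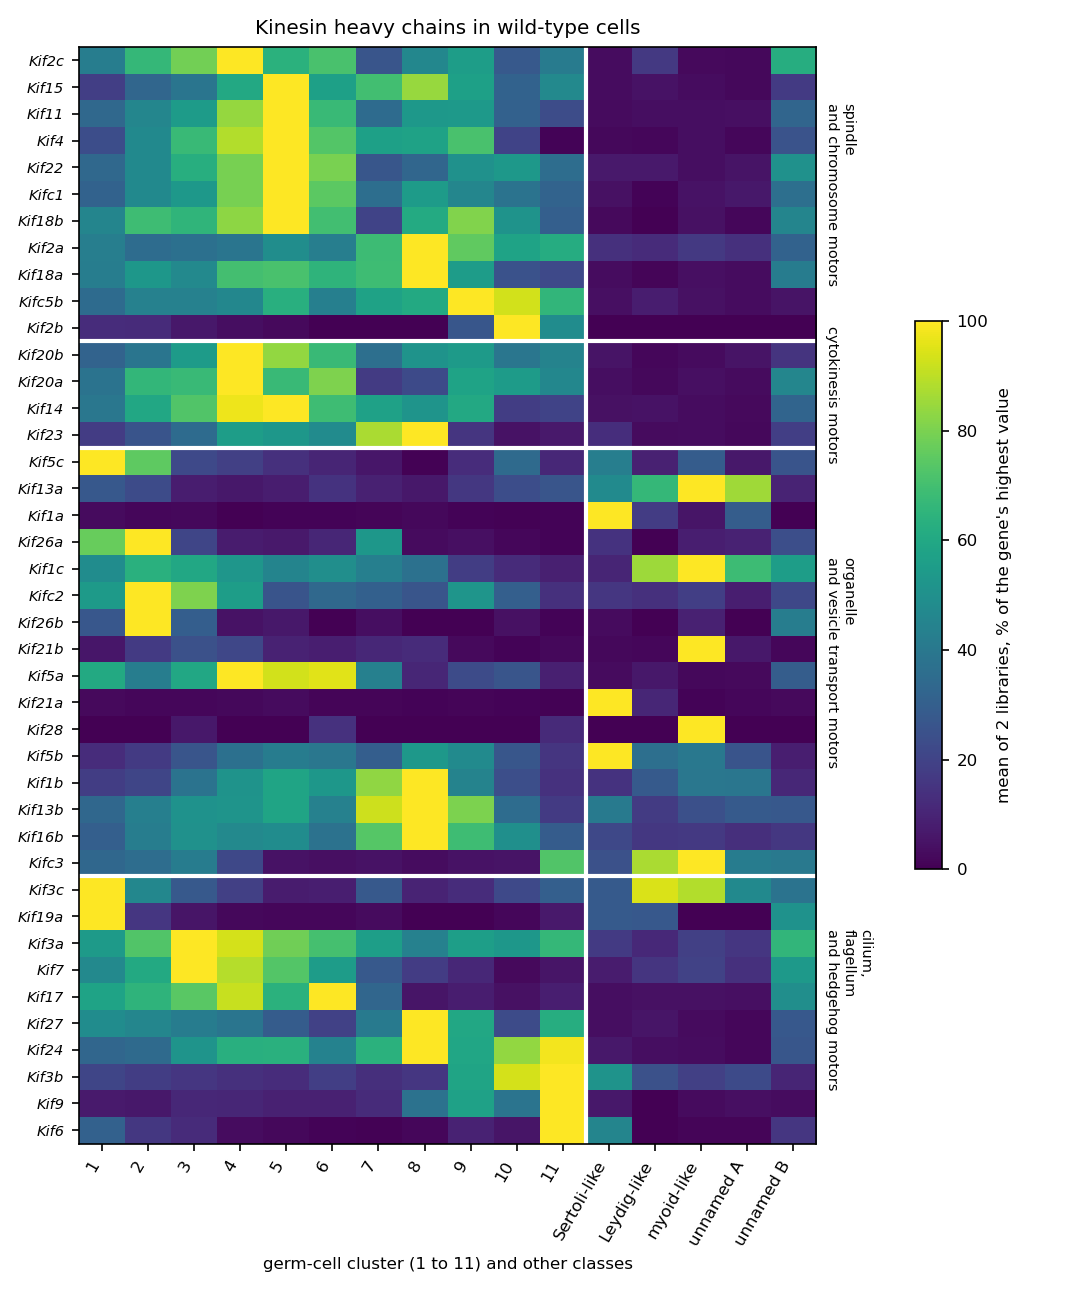
Wild-type level of the 41 kinesin heavy chains (rows, grouped by role) in the 11 germ-cell clusters and the 5 other classes (columns), as a percent of each gene's own highest mean over 2 libraries. Most spindle and cytokinesis genes are brightest in clusters 4 and 5 and darker in cluster 7, while *Kif3b* and *Kif9* are brightest in cluster 11 and *Kif21a*, *Kif1a* and *Kif5b* in Sertoli-like cells.

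Among the cytokinesis motors, *Kif20a* and *Kif20b* were highest in cluster 4 and *Kif23* in cluster 8. *Kif20a*, which brings the chromosomal passenger complex to the central spindle, was at 125 and 125 CPM in cluster 4 and lowest in cluster 7 at 23.2 and 20.3. *Kif20b*, which acts late in cytokinesis, reached 279 and 319 CPM in cluster 4 and was lowest in cluster 1 at 94.5 and 96.7. *Kif14*, a midbody motor, had 46.6 and 38.6 in cluster 5, and its values of clusters 4 and 5 overlapped. *Kif23*, the motor subunit of centralspindlin and a component of the intercellular bridges between germ cells, was at 299.6 and 322 CPM in cluster 7 and at 370.0 and 342 in cluster 8. It was thus high where *Kif20a* was at its lowest. Its level was 53.7 and 55.7 in cluster 9 and 19.9 and 14.1 in cluster 10.

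Transport kinesins held several distinct stage patterns. *Kif5b*, the widely expressed heavy chain of conventional kinesin, was highest in cluster 8 at 321 and 293 CPM and lowest in cluster 1 at 78.9 and 67.4. Its relatives *Kif5a* and *Kif5c*, known from neurons, peaked elsewhere. *Kif5a* was highest in cluster 4 at 35.9 and 29.0, overlapping with cluster 6, and *Kif5c* in cluster 1 at 53.2 and 46.6, with a mean of 0.304 in cluster 8. The 3 genes of this motor therefore had their peaks in 3 different clusters.

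*Kif1b*, which moves mitochondria and vesicle precursors, was highest in cluster 8 at 323 and 289 CPM and lowest in cluster 11 at 44.4 and 43.8. *Kif13b* (97.8 and 101) and *Kif16b* (60.9 and 58.8), motors of vesicles and of early endosomes, were also highest in cluster 8. *Kif26a*, a kinesin without motor activity that acts in signalling, was high in 2 separate places. It stood at 48.5 and 46.9 CPM in cluster 2, at 4.19 and 2.21 in cluster 5, at 25.2 and 25.5 in cluster 7 and at 1.16 and 1.52 in cluster 8. *Kif26b*, its relative, was highest in cluster 2 at 3.83 and 2.38. *Kif1c*, *Kif21b*, *Kifc2*, *Kifc3* and *Kif13a* had peak means of 21.0, 21.4, 9.59, 11.1 and 4.64 CPM in clusters 2, 3, 2, 11 and 1, each overlapping with the next highest cluster. *Kif21a*, *Kif1a* and *Kif28* had germ-cell peak means of 8.71, 0.663 and 0.0850.

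The cilium, flagellum and hedgehog motors had their peaks in several parts of the series. Of these 10, 4 were highest in cluster 1 or 3, 3 in cluster 6 or 8 and 3 in cluster 11. *Kif3a* and *Kif3b* encode the motor subunits of the heterotrimeric kinesin that drives intraflagellar transport. *Kif3a* was highest in cluster 3 at 277 and 267 CPM and lowest in cluster 8 at 130.3 and 108. *Kif3b* was at 13.3 and 13.8 in cluster 8 and at 56.4 and 44.0 in cluster 9. It stood at 85.8 and 75.8 in cluster 10 and at 82.4 and 90.2 in cluster 11. The genes of the partner subunits thus had different courses, and *Kif3b* was highest from cluster 10 on. *Kif9* and *Kif6*, motors of motile cilia and the sperm flagellum, were highest in cluster 11 at 31.1 and 20.7 and at 20.2 and 10.7 CPM. *Kif3c*, an alternative partner of *Kif3a*, and *Kif19a*, which limits the length of cilia, were highest in cluster 1 at 9.27 and 8.63 and at 3.45 and 3.04.

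*Kif7*, a regulator of hedgehog signalling, was highest in cluster 3 at 19.0 and 18.5 CPM, and *Kif17*, an accessory motor of cilia, in cluster 6 at 11.8 and 8.67, overlapping with cluster 4. *Kif27*, related to *Kif7*, and *Kif24*, a depolymerase of centrioles, were highest in cluster 8 at 40.3 and 49.7 and at 35.1 and 31.1, and *Kif24* overlapped there with cluster 11. The cofactor gene *Kif1bp* varied less, from 32.2 and 29.6 in cluster 1 to 58.8 and 58.3 in cluster 10. *Kif16bos* had a highest mean of 0.329.

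Promoter windows (from 250 bases before to 50 after the start of a RefSeq transcript, GRCm38.p6) existed for 33 of the 43 members, in 37 windows. Windows of the same gene overlapped for *Kif1b*, *Kif2a* and *Kif9*, so a match there can count more than once. All windows were searched on both strands for TTTGAA, the core of the cell cycle homology region known from G2/M promoters, and for the CCAAT box. TTTGAA stood in 8 of 12 windows of spindle and chromosome motors and 3 of 3 of cytokinesis motors, against 2 of 11 of transport motors, 1 of 10 of cilium, flagellum and hedgehog motors and 17.9% of all 32851 windows. CCAAT stood in 7 of 12, 2 of 3, 3 of 11 and 5 of 10 windows of these groups, against 37.4% of all windows. Another 3 strings were searched. GTTGCC, a part of the X-box known from ciliary genes, stood in 6 of 10 windows of cilium, flagellum and hedgehog motors, 2 of 12 of spindle and chromosome motors, 1 of 3 of cytokinesis motors and 2 of 11 of transport motors, against 12.5% of all windows. GCGGGAA, an E2F core, stood in 3 and the E-box CACGTG in 1 of the 37 kinesin windows, against 4.60 and 7.15% of all windows. A match is a string of letters and does not show that a factor binds. A link of TTTGAA with the direction of a genotype difference was not tested. The windows of *Kif16b* and *Kif18a*, both called higher in *Meioc*-null below, hold no TTTGAA, and that of *Kif27*, tested and not called, holds it. The windows printed here belong to *Kif11* and *Kif22* (spindle genes called higher in *Meioc*-null cells of clusters 7 to 10), to the X-linked *Kif4* and, as a member that went the other way, to *Kif3b*, whose window holds no TTTGAA. They are written 5′ to 3′ along the gene, with TTTGAA and the CCAAT box in capitals on either strand. *Kif11* is at chr19:37376132-37376431 (plus strand), *Kif22* at chr7:127042371-127042670 (minus), *Kif4* at chrX:100625815-100626114 (plus) and *Kif3b* at chr2:153291166-153291465 (plus). In *Kif11* and *Kif22* the TTTGAA match nearest to the transcript start lies 19 and 17 bases before it, with a CCAAT match 45 and 54 bases before it, and in *Kif4* the TTTGAA match lies 19 bases after it.
Kif11: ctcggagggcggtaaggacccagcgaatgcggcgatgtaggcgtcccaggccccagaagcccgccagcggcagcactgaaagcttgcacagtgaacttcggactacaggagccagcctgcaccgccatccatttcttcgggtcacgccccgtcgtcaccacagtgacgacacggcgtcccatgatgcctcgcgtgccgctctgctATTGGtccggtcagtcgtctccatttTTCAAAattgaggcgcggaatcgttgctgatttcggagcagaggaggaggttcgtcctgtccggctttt
Kif22: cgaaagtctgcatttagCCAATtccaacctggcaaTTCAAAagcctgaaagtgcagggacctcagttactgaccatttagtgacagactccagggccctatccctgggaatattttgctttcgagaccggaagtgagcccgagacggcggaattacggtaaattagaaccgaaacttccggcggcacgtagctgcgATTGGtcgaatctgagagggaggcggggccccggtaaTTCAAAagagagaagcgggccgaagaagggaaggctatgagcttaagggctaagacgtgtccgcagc
Kif4: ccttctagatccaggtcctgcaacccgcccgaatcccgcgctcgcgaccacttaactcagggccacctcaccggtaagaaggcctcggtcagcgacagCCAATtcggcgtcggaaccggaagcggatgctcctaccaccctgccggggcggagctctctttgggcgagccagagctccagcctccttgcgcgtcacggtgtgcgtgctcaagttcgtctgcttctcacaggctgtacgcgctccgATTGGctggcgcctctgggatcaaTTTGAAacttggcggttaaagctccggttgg
Kif3b: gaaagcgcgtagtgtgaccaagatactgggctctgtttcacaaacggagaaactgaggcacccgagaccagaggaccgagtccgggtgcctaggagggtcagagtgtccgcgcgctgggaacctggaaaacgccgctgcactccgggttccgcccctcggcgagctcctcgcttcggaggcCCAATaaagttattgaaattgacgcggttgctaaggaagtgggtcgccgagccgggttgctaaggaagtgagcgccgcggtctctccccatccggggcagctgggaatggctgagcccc

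The next comparison asked whether kinesin transcripts differ between wild-type and *Meioc*-null cells placed in the same cluster, which need not be at the same stage. UMI counts were added up for each cluster of each library and tested with edgeR's quasi-likelihood test over all genes detected in 25% or more of the cells of one of the genotypes. A gene was called at a Benjamini-Hochberg adjusted p under 0.05 and an absolute log2 fold change over 0.1. Log2 fold changes are wild type over *Meioc*-null, so negative values are higher in *Meioc*-null, and each genotype had 2 libraries throughout. Of the 43 members, 30 passed the filter on detection in at least 1 germ-cell cluster and 18 were called in at least 1, against 60.7% of the 9932 genes tested in at least 1. The 13 never tested in germ cells were *Kif1a*, *Kif2b*, *Kif3c*, *Kif6*, *Kif9*, *Kif13a*, *Kif16bos*, *Kif17*, *Kif19a*, *Kif21a*, *Kif26b*, *Kif28* and *Kifc3*.

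By edgeR, 0 members were called in each of clusters 1 to 6, where 18 to 30 members were tested. At an unadjusted p under 0.05 the counts in clusters 1 to 6 were 3, 1, 0, 0, 2 and 3 members, and DESeq2 called 0 in each. Across all genes tested the same edgeR rule called 0.0355, 0.0112, 0.025, 0.0, 0.0 and 0.967% in these clusters. With the littermate pair as a block, edgeR called *Kif14* in cluster 5 (adjusted p = 0.0245) and *Kif14*, *Kif5a* and *Kif16b* in cluster 6 (adjusted p = 0.0038, 0.0164 and 0.0182), all higher in *Meioc*-null. That fit called 2.68 and 10.2% of all genes in these clusters, against 1 of 23 and 3 of 18 members tested. Their log2 fold changes in that fit were -0.39 in cluster 5 and -0.44, -0.38 and -0.41 in cluster 6. Levels of *Kif14* in cluster 6 were 32.6 and 26.0 CPM in wild type against 38.8 and 43.3 in *Meioc*-null, with no overlap between the genotypes.

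From cluster 7 on, most called members were higher in *Meioc*-null cells. In cluster 7, 11 of 18 tested members were called (61.1%, against 21.6% of all genes tested). All 11 were higher in *Meioc*-null (13.4% of all genes) and 0 were higher in wild type (8.21% of all genes). Cluster 8 had 10 of 21 called (47.6%, against 48.6% of all genes), all 10 higher in *Meioc*-null (26.1% of all genes) and 0 in wild type (22.6%). Cluster 9 had 11 of 22 called (50%, against 57.2%), 8 higher in *Meioc*-null (29.3% of all genes) and 3 in wild type (27.9%). Cluster 10 had 13 of 21 called (61.9%, against 62.0%), 10 higher in *Meioc*-null (31.2% of all genes) and 3 in wild type (30.7%). It held only 68 and 111 *Meioc*-null cells against 233 and 610 wild-type cells, so all its *Meioc*-null values rest on few cells. For clusters 8 to 10 the share of members called was therefore not above that of all genes. Some members passed the filter on detection through *Meioc*-null cells alone, which favours a call in that direction. They were *Kif14*, *Kif20a*, *Kif22* and *Kifc1* in cluster 7, *Kif14*, *Kif20a*, *Kifc1* and *Kifc5b* in cluster 8 and *Kif14*, *Kif23*, *Kif4* and *Kifc1* in cluster 10, all of them called, and in cluster 9 *Kif14*, *Kif24*, *Kif27*, *Kifc5b* and *Kifc1*, of which *Kifc1* was called. Of the members detected in 25% or more of wild-type cells, 7 of 14, 6 of 17, 10 of 17 and 9 of 17 were called in clusters 7 to 10, against 19.9, 46.4, 55.6 and 59.6% of all genes so detected. The counts and medians over tested members are therefore descriptions. For every called member in these 4 clusters, the libraries of the genotypes did not overlap. A call on 2 libraries per genotype nearly implies this, so here and below it adds no support to the call. The median log2 fold change of the members tested was -0.39, -0.26, -0.15 and -0.39 in clusters 7 to 10, beside 0.00, -0.01, -0.01 and 0.00 over all genes. *Kif11*, *Kif20b*, *Kif22*, *Kif4* and *Kifc1* were called in all 4 clusters (5 of the 18 members tested in all 4, against 9.33% of 5082 genes), and of these *Kif11* alone kept every call whichever library was left out. The block called 12, 13, 12 and 14 members in clusters 7 to 10, against 41.3, 58.4, 65.7 and 68.0% of all genes.

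Stage markers differed between the genotypes within the later clusters as well. The *Meioc*-null cells were placed by their nearest wild-type cells, with no limit on the distance. Cells with no wild-type counterpart would be placed too. The paper describes a mutant-only cluster, mostly of cells in G2/M phase, which was not set apart here. In cluster 10 the sum of 11 G2/M transcripts other than kinesins was 5922 and 5728 CPM in wild type against 10085 and 9601 in *Meioc*-null. The highest wild-type mean of that sum in any germ-cell cluster was 8024, in cluster 4. The summed level of 7 markers of differentiating spermatogonia was 826 and 768 CPM in wild type against 831 and 809.6 in *Meioc*-null in cluster 7, where the genotypes overlapped. It was 393 and 343 against 539 and 529.6 in cluster 8, 245 and 213 against 734 and 642 in cluster 9 and 254 and 235 against 1112 and 984 in cluster 10. The sum of 8 markers of pachytene spermatocytes ran the other way, at 319.5 and 290.5 against 235 and 235 in cluster 8, 681 and 575 against 329.7 and 355 in cluster 9 and 833 and 743 against 215 and 233 in cluster 10. In cluster 7 it was 201 and 139.8 against 149 and 141, and in cluster 10 its member *Ccna1* was at 0 in all 4 libraries. The sum of 8 early spermatocyte markers was 5104 and 4920.0 against 6067 and 5754 in cluster 8, 4986 and 4476 against 6336 and 6086 in cluster 9 and 5099 and 4593 against 5895 and 5014 in cluster 10. The sum of 7 markers of undifferentiated spermatogonia was low and was higher in wild type in clusters 8 to 10. It was 15.7 and 12.0 against 8.15 and 4.20 in cluster 8 and 10.3 and 8.45 against 8.24 and 5.05 in cluster 9. Cluster 10 had 15.3 and 13.6 against 3.54 and 3.95. From cluster 8 on, *Meioc*-null cells thus had more of the differentiating spermatogonia markers. They had less of the undifferentiated spermatogonia and pachytene markers, and in clusters 8 and 9 more of the early spermatocyte markers. The part of these marker differences in the kinesin differences was not tested.

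**Figure D2:**
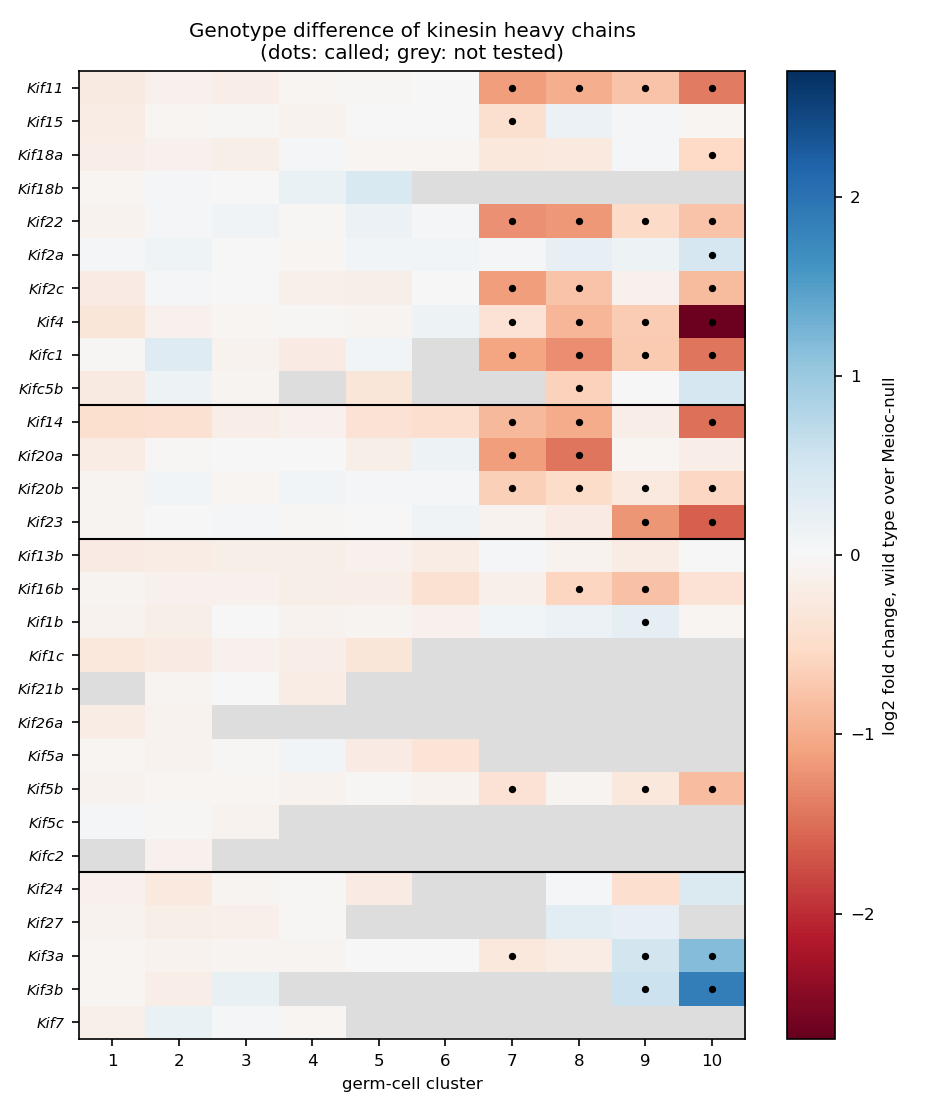
Log2 fold change (wild type over *Meioc*-null, colour) of the kinesin heavy chains tested in germ-cell clusters 1 to 10, grouped by role. Dots mark called genes and grey marks genes not tested. The dots begin in cluster 7, most of them on genes higher in *Meioc*-null, while *Kif3a* and *Kif3b* are higher in wild type in clusters 9 and 10.

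Among the spindle and chromosome motors, 6 of 8, 6 of 9, 4 of 9 and 6 of 9 tested members were called higher in *Meioc*-null in clusters 7 to 10. The shares of all genes so called were 13.4, 26.1, 29.3 and 31.2%. Some of the called members passed the filter on detection through *Meioc*-null cells alone, which favours this direction. They were *Kif22* and *Kifc1* in cluster 7, *Kifc1* and *Kifc5b* in cluster 8, *Kifc1* in cluster 9 and *Kif4* and *Kifc1* in cluster 10. *Kif2a* was the 1 member called higher in wild type, in cluster 10. The median log2 fold changes of the motors tested were -0.75, -0.77, -0.12 and -0.77. Cluster 10 levels of *Kif11* were 65.6 and 66.0 CPM in wild type against 182 and 189 in *Meioc*-null replicates 1 and 2. Its log2 fold change there was -1.41 ± 0.12 (SE, edgeR adjusted p = 8.64e-11), and the values of clusters 7 to 9 were -1.13, -0.99 and -0.77. Where wild-type *Kif11* had its dip, in cluster 7, the *Meioc*-null libraries stood at 174 and 159.7 CPM. *Kif22* in cluster 8 had 30.2 and 33.3 in wild type against 82.3 and 68.3 in *Meioc*-null (log2 fold change -1.17 ± 0.15, adjusted p = 1.72e-06). *Kifc1* in cluster 8 had 21.5 and 21.1 against 57.9 and 47.9 (-1.25 ± 0.16, adjusted p = 2.69e-06). *Kifc5b*, which can share its reads, was called in cluster 8 alone, with 16.3 and 14.6 against 25.0 and 23.8 (-0.61 ± 0.20, adjusted p = 0.0146), and not without wild-type replicate 2 (adjusted p = 0.1). All of these were higher in both *Meioc*-null libraries than in either wild-type library.

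*Kif2c* in cluster 8 had 49.3 and 48.3 CPM in wild type against 90.7 and 82.3 in *Meioc*-null, and its log2 fold change was -0.77 ± 0.13 (edgeR adjusted p = 7.02e-05). It was also called in clusters 7 and 10 and not in cluster 9. *Kif15* was called in cluster 7 alone, with 143 and 156 against 208 and 207 (-0.42 ± 0.10, adjusted p = 0.012), and lost without wild-type replicate 1 (adjusted p = 0.116) or *Meioc*-null replicate 2 (adjusted p = 0.0562). *Kif18a* was called in cluster 10 alone, with 29.5 and 25.1 against 43.4 and 40.0 (-0.54 ± 0.19, adjusted p = 0.0147), and lost without wild-type replicate 2 (adjusted p = 0.146) or *Meioc*-null replicate 2 (adjusted p = 0.0663), with DESeq2 (adjusted p = 0.112) and with no filter on low values (adjusted p = 0.122). With the littermate block it was also called in clusters 7 (adjusted p = 0.00876) and 8 (adjusted p = 0.0284). *Kif2a* ran the other way in cluster 10, with 215 and 219.8 in wild type against 189 and 153 in *Meioc*-null (0.45 ± 0.12, adjusted p = 0.00169), and was not called without *Meioc*-null replicate 2 (adjusted p = 0.0624). It was not called either under 4 other cell groupings, where clusters 9 and 10 fell together and its log2 fold changes were 0.06 to 0.15. The block added *Kif2a* in cluster 8, again higher in wild type (adjusted p = 0.02). The log2 fold change of the depolymerase *Kif2c* in cluster 10 was -0.85.

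*Kif4* had the log2 fold change farthest from 0 of any member in any tested cluster. At 23.0 and 24.7 CPM in wild-type cluster 10 it stood at 187 and 139 in *Meioc*-null (-2.64 ± 0.15, edgeR adjusted p = 9.53e-15). Its log2 fold changes in clusters 7 to 9 were -0.40, -0.90 and -0.68. The cluster 7 value was -0.13 (adjusted p = 0.439) when cells were placed without called genes and -0.27 (adjusted p = 0.0868) with at least 8 clusters, and its call was also lost without wild-type replicate 1 or either *Meioc*-null library. X-linked genes as a group differed in cluster 10 as well. Of 300 tested there, 255 were called higher in *Meioc*-null and 9 higher in wild type, with a median log2 fold change of -1.34, against 0.04 over 6479 autosomal genes. X-linked genes made up 3.77 and 3.66% of UMIs in *Meioc*-null cluster 10, beside the wild-type 1.51 and 1.55% given above. The X-linked medians of clusters 7 to 9 were 0.08, -0.22 and -0.30, with 13, 82 and 122 X-linked genes called higher in *Meioc*-null and 21, 31 and 42 in wild type. How far the difference of *Kif4* goes with its chromosome was not tested.

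Among the 4 cytokinesis motors, 3 were called higher in *Meioc*-null in each of clusters 7, 8 and 10 and 2 in cluster 9. Of all genes, 13.4, 26.1, 29.3 and 31.2% were called in this direction in clusters 7 to 10. The calls of *Kif14*, in clusters 7, 8 and 10, are of a gene that passed the filter on detection there through *Meioc*-null cells alone. *Kif20a* was called in clusters 7 and 8 alone, and its cluster 8 levels were 30.8 and 25.2 CPM in wild type against 83.2 and 73.9 in *Meioc*-null (-1.45 ± 0.15, edgeR adjusted p = 1.36e-07). In cluster 10, 73.8 and 63.3 against 84.1 and 80.0 gave a log2 fold change of -0.18. *Kif23* was called in clusters 9 and 10 alone. Its cluster 9 levels were 53.7 and 55.7 in wild type against 137 and 114 in *Meioc*-null (-1.18 ± 0.13, adjusted p = 2.07e-10), and the cluster 7 log2 fold change was -0.10. With the littermate block *Kif23* was called in cluster 8 too (adjusted p = 0.0231). The calls of *Kif20a* lay in earlier clusters and those of *Kif23* mostly in later ones. *Kif20a* in clusters 7 and 8 and *Kif23* in cluster 10 passed the filter on detection through *Meioc*-null cells alone. The filter favours these calls, so the order of the calls is a description. *Kif14* in cluster 10 had 8.20 and 7.39 against 26.6 and 20.7 (-1.49 ± 0.28, adjusted p = 4.10e-05). *Kif20b* in cluster 7 had 112 and 106 against 182 and 171 (-0.65 ± 0.09, adjusted p = 0.000414). For both, each *Meioc*-null library lay above each wild-type library.

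**Figure D3:**
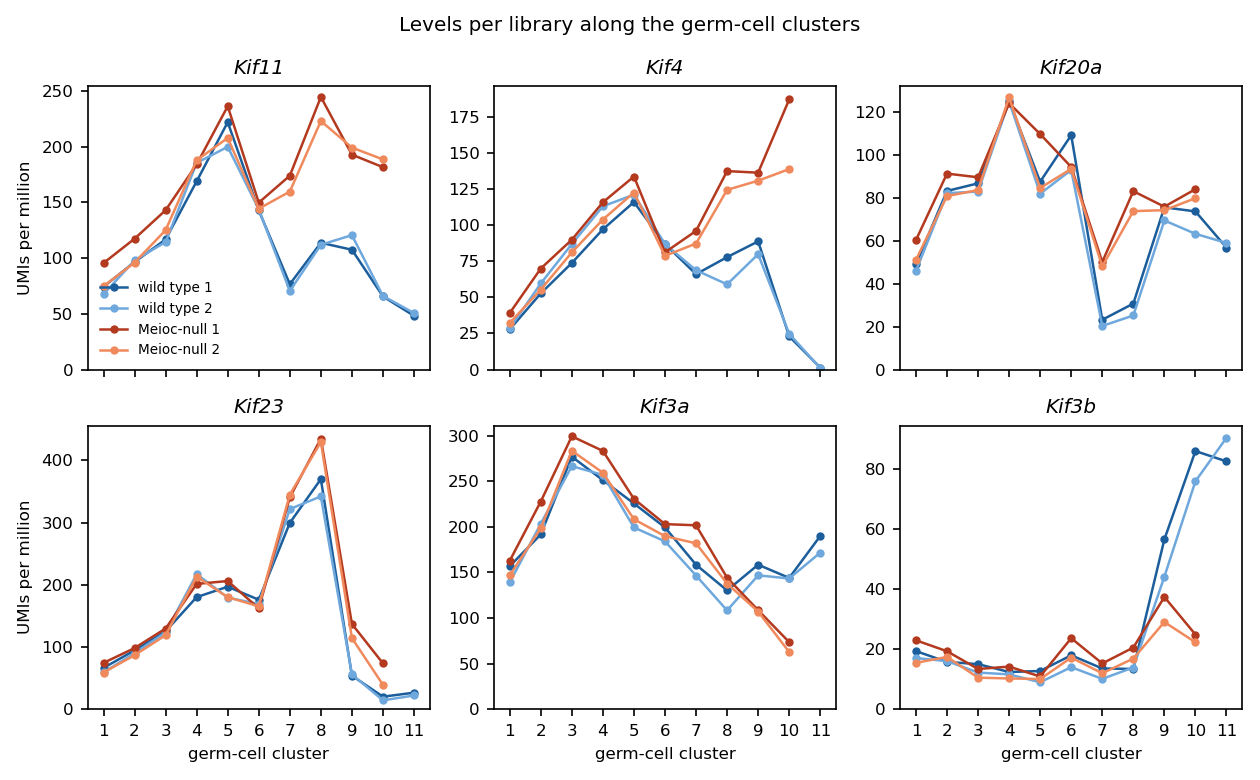
Levels of 6 kinesins in UMIs per 1000000 (CPM) along germ-cell clusters 1 to 11, with 1 line for each of the 4 libraries; *Meioc*-null lines end at cluster 10. The *Meioc*-null lines of *Kif11*, *Kif4* and *Kif20a* lie above wild type in clusters 7 and 8 and those of *Kif23* in clusters 9 and 10, where *Kif3a* and *Kif3b* are higher in wild type.

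Of the 4 transport kinesins tested, 1, 1, 3 and 1 were called in clusters 7 to 10, where 21.6, 48.6, 57.2 and 62.0% of all genes were. *Kif5b* in cluster 10 had 165 and 142 CPM in wild type against 296 and 282 in *Meioc*-null (-0.84 ± 0.11, edgeR adjusted p = 3.35e-07), and it was also called in clusters 7 (-0.39) and 9 (-0.29). The cluster 7 call was lost without wild-type replicate 1 (adjusted p = 0.113), without *Meioc*-null replicate 1 (adjusted p = 0.106) and with cells placed without called genes (adjusted p = 0.0557). That of cluster 9 was lost without any 1 library other than *Meioc*-null replicate 2 (adjusted p = 0.128 to 0.204) and with DESeq2 (adjusted p = 0.0874). *Kif16b* in cluster 9 had 39.9 and 42.6 against 77.4 and 67.5 (-0.79 ± 0.14, adjusted p = 1.09e-05). It was also called in cluster 8, at -0.57, though not with cells placed without called genes (-0.23, adjusted p = 0.127), and with the littermate block in cluster 10 (adjusted p = 0.0339). Both stood higher in *Meioc*-null in each of these. *Kif1b* in cluster 9 had 135 and 139 in wild type against 127 and 103 in *Meioc*-null (0.27 ± 0.11, adjusted p = 0.0376), and its sign turned under 4 alternative cell groupings in which clusters 9 and 10 fell together. In 1 of these, with cells placed without called genes, it was called higher in *Meioc*-null (-0.25, adjusted p = 0.029). *Kif13b* was tested in clusters 7 to 10 and not called. The median log2 fold change of the 4 transport motors tested was -0.06, -0.09, -0.25 and -0.22 in clusters 7 to 10.

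The motor genes of intraflagellar transport were higher in wild type in clusters 9 and 10. The pachytene marker sum was higher in wild type there too, but also in cluster 8, where *Kif3a* was not called and *Kif3b* was not tested. A link was not tested. Wild-type *Kif3b* itself had a higher level in clusters 9 and 10 than in cluster 8, as given above. *Kif3b* in cluster 10 had 85.8 and 75.8 CPM in wild type against 24.8 and 22.2 in *Meioc*-null (1.87 ± 0.18, edgeR adjusted p = 6.64e-10). *Kif3a* in cluster 10 had 144 and 143 against 73.5 and 62.7 (1.18 ± 0.14, adjusted p = 1.46e-08). Both were also called higher in wild type in cluster 9, *Kif3b* at 0.58 and *Kif3a* at 0.49, but *Kif3b* not without wild-type replicate 1 (adjusted p = 0.0569) or *Meioc*-null replicate 2 (adjusted p = 0.0523). *Kif3a* was called in cluster 7 too, there higher in *Meioc*-null at -0.28 ± 0.09 (adjusted p = 0.0454). That call was lost when any 1 library was left out, with adjusted p-values of 0.106 to 0.218. *Kif24*, tested in clusters 8 to 10, and *Kif27*, tested in clusters 8 and 9, were not called, and *Kif24* was called in cluster 9 only with the littermate block, higher in *Meioc*-null (adjusted p = 0.0373).

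The genotype effect of cluster 10 minus that of cluster 7 was tested directly with edgeR over 5500 genes. Each pup gave cells to both clusters, so the fit had a term for the library. Of 18 members tested, 10 passed at an adjusted p under 0.05, against 62.9% of all genes. *Kif4* (-2.27 ± 0.15, adjusted p = 1.13e-18), *Kif3a* (1.45 ± 0.12, adjusted p = 1.15e-14) and *Kif20a* (0.94 ± 0.15, adjusted p = 6.32e-07) had the smallest adjusted p-values. The excess in *Meioc*-null cells was thus larger in cluster 10 for *Kif4* and larger in cluster 7 for *Kif20a*. In those clusters each passed the filter on detection through *Meioc*-null cells alone, which favours these directions.

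Companion lists were read in the same fits and are described by counts, beside the 13.4, 26.1, 29.3 and 31.2% of all genes called higher in *Meioc*-null and the 8.21, 22.6, 27.9 and 30.7% called higher in wild type in clusters 7 to 10. Of 12 kinesin partners and cofactors, 7 of 11 tested were higher in *Meioc*-null and 1 in wild type in cluster 7, and cluster 10 had 5 and 1 of 9. Cluster 8 had 5 and 0 of 10, and cluster 9 had 4 and 2 of 9. *Nusap1*, a binder of spindle microtubules, had 102 and 106 CPM in wild-type cluster 9 against 354 and 370.2 in *Meioc*-null (-1.80 ± 0.12, edgeR adjusted p = 9.83e-17). *Hmmr*, a spindle pole protein, had a log2 fold change of -1.52 there, and *Tpx2*, which targets Aurora A to the spindle, one of -1.28 in cluster 10. *Klc2*, a light chain of conventional kinesin, was the 1 partner higher in wild type in cluster 10, at 51.1 and 44.8 CPM against 16.8 and 13.8 (1.74 ± 0.21, adjusted p = 4.15e-08). *Cenpe*, the centromere kinesin outside the symbol rule, was higher in *Meioc*-null throughout clusters 7 to 10, with log2 fold changes of -1.02, -1.38, -0.44 and -0.98. Its cluster 8 levels were 147 and 161 CPM in wild type against 406 and 431 in *Meioc*-null.

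Of 9 genes of the chromosomal passenger complex and mitotic kinases, 6 of 8, 7 of 8, 4 of 8 and 5 of 9 tested were higher in *Meioc*-null in clusters 7 to 10. In wild type 0, 0, 1 and 1 were higher. Only 6, 5, 7 and 7 of them were detected in 25% or more of wild-type cells. The rest of those tested passed the filter through *Meioc*-null cells alone, which favours a call in that direction. *Plk1*, a mitotic kinase, had 16.4 and 17.7 CPM in wild type against 166 and 146 in *Meioc*-null in cluster 10 (-3.07 ± 0.15, edgeR adjusted p = 3.39e-16). Log2 fold changes of the passenger complex kinase *Aurkb* and its partner *Birc5* were -3.16 and -0.97 in that cluster, and that of their scaffold *Incenp* was -1.26 in cluster 8. Of 11 other G2/M transcripts, 8 of 10, 8 of 10, 9 of 11 and 8 of 11 tested were higher in *Meioc*-null in clusters 7 to 10, with medians of -1.19, -1.48, -0.82 and -0.90. In wild type 0, 0, 0 and 1 were higher. Of this list, 8, 6, 10 and 9 were detected in 25% or more of wild-type cells, and the others tested passed through *Meioc*-null cells alone. The medians are therefore descriptions. *Cdc20*, an activator of the anaphase-promoting complex, was higher in *Meioc*-null in cluster 8 (-2.08). In cluster 10 it was higher in wild type (1.04), at 433 and 379.6 CPM against 196 and 220.1. *Ube2c*, an enzyme of the same complex, stood at -1.25 in cluster 9, and the log2 fold changes of cyclin A2 (*Ccna2*) and the phosphatase gene *Cdc25c* were -2.39 and -2.40 in cluster 10.

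Intraflagellar transport genes lay on the side of *Kif3a* and *Kif3b* in clusters 9 and 10. Of 14 listed, 9 of 12 tested were higher in wild type in cluster 10 and 0 in *Meioc*-null, with a median of 0.83. Cluster 9 had 5 of 11 higher in wild type, with a median of 0.15. *Ift122* in cluster 10 had 116 and 101 CPM in wild type against 28.3 and 20.2 in *Meioc*-null (2.28 ± 0.18, edgeR adjusted p = 7.42e-12). *Ift88* had 94.8 and 118 against 36.3 and 39.0 (1.58 ± 0.17, adjusted p = 3.91e-09), and *Ift22* a log2 fold change of 1.16. Cluster 7 had 0 of 8 called by edgeR in this list. Of 22 cytoplasmic dynein and dynactin genes, 4 of 20 tested were wild-type-higher in cluster 10 and 6 were *Meioc*-null-higher (20 and 30%), neither above the share of all genes. Clusters 7 and 8 had 3 and 6 of 16 higher in *Meioc*-null and 0 and 2 in wild type, and their summed levels were 2155 and 1978 CPM in wild type against 2589 and 2514 in *Meioc*-null in cluster 7 and 2116 and 2075 against 2632 and 2715 in cluster 8. Among the genes of cluster 10, *Dync2li1*, a subunit of the dynein that returns cargo within cilia, was higher in wild type (1.91). The dynein light chain genes *Dynlrb1* and *Dynll2* were higher in *Meioc*-null in cluster 9 (-1.59 and -1.24).

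**Figure D4:**
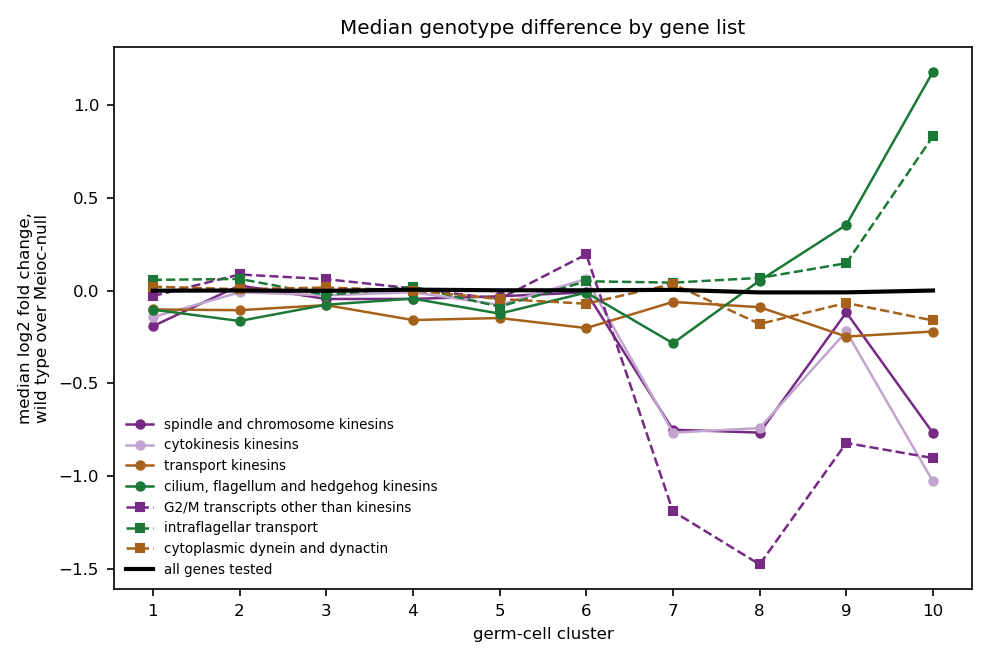
Median log2 fold change (wild type over *Meioc*-null) of the kinesin role groups, of companion lists and of all genes tested in germ-cell clusters 1 to 10. The spindle, cytokinesis and G2/M lines lie below 0 from cluster 7. In cluster 10 the cilium kinesins (1.18, with only 3 of the 10 tested) and intraflagellar transport genes (0.83) lie above 0.

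Cells with a *Plk1* UMI were more frequent among *Meioc*-null cells of these clusters. Their share was 3.44 and 3.06% in wild type against 27.2 and 25.7% in *Meioc*-null in cluster 7, and 5.10 and 3.59% against 46.0 and 42.5% in cluster 8. It was 18.4 and 15.0% against 49.6 and 62.5% in cluster 9, and 22.7 and 19.5% against 86.8 and 86.5% in cluster 10. Median depths per library in clusters 7 to 10 were 9686 to 13267 UMIs in wild type and 11171 to 17439 in *Meioc*-null. With these cells left out, a choice made after the data were seen, edgeR called 7 of 18 members in cluster 7 (21.2% of all genes), 9 of 20 in cluster 8 (47.0%) and 9 of 19 in cluster 9 (44.5%). *Kif11* then had log2 fold changes of -0.80, -0.85 and -0.70 in clusters 7 to 9, and *Kif23* had -1.47 in cluster 9. *Kif20a* and *Kif20b* stayed called in cluster 7 at -0.59 and -0.36, from -1.13 and -0.65. In cluster 7, *Kif4* (-0.09, from -0.40), *Kif5b* (-0.27, from -0.39) and *Kif3a* (-0.25, from -0.28) were no longer called, and *Kifc1* no longer passed the filter on detection. Calls were also lost for *Kif14* in cluster 8 (-0.71, from -0.99) and in cluster 9 for *Kif22* (-0.20, from -0.51), *Kif20b* (-0.22, from -0.25) and *Kif1b* (0.20, from 0.27), while *Kifc5b* in cluster 8 and *Kifc1* in cluster 9 were not tested. *Kif1b* in cluster 8 and *Kif24* and *Kif13b* in cluster 9 were called in this fit (0.27, -0.78 and -0.46) and not by the same test on all cells. Cluster 10 could not be tested in this way, since under 50 *Meioc*-null cells were left in each library.

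Somatic cells held low summed levels of spindle motors and a different set of transport kinesins. The wild-type sum of spindle and chromosome motors was 12.3% of that of all germ cells in Sertoli-like, 13.4% in Leydig-like, 13.9% in myoid-like and 11.9% in unnamed class A cells. For transport motors the same shares were 231, 94.0, 125 and 82.8%. The 5 germ-cell markers stood at 8.61, 3.68, 3.28 and 4.18% of their germ-cell level in these classes, and the part of germ-cell RNA in the low spindle levels was not tested. Levels in classes are again descriptions with no test. The most class-biased member was *Kif21a*, a kinesin that restrains microtubule growth at the cell cortex. It had 291 and 317 CPM in wild type against 329 and 296 in *Meioc*-null Sertoli-like cells, 29.6 times the wild-type mean of the other classes, and a mean of at most 8.71 in any germ-cell cluster. *Kif5b* had 577 and 573 against 608 and 581 in Sertoli-like cells, 3.59 times the other classes. *Kif1a*, known as a carrier of synaptic vesicle precursors, had 20.5 and 23.9 against 21.6 and 24.5, a ratio of 8.63. The genotypes overlapped for all of these but *Kif5b*. *Kif6* and *Kif3b* followed, with ratios of 6.79 and 2.34.

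Most Sertoli-like cells were shallow, with library medians of 2290.5 to 3659 UMIs. In the 63 to 123 Sertoli-like cells per library over 10000 UMIs, *Kif21a* stood at 320.0 and 333 CPM in wild type against 356 and 333 in *Meioc*-null. In the shallower cells it stood at 91.8 and 187 against 248 and 143. In every library the deep cells thus had the higher level. *Kif21b*, a relative of *Kif21a*, led in myoid-like cells with 83.8 and 88.0 CPM in wild type against 109 and 101 in *Meioc*-null, 22.5 times the other classes. *Kif21a* had a wild-type mean of 2.99 there, and *Kif21b* one of 1.70 in Sertoli-like cells, so each was high in a different class. *Kifc3* (18.6 and 12.0), *Kif13a* (14.2 and 19.3), *Kif1c* (34.7 and 31.5) and *Kif3c* (6.54 and 9.31) followed in wild-type myoid-like cells, with ratios of 2.37, 2.32, 1.94 and 1.82.

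**Figure D5:**
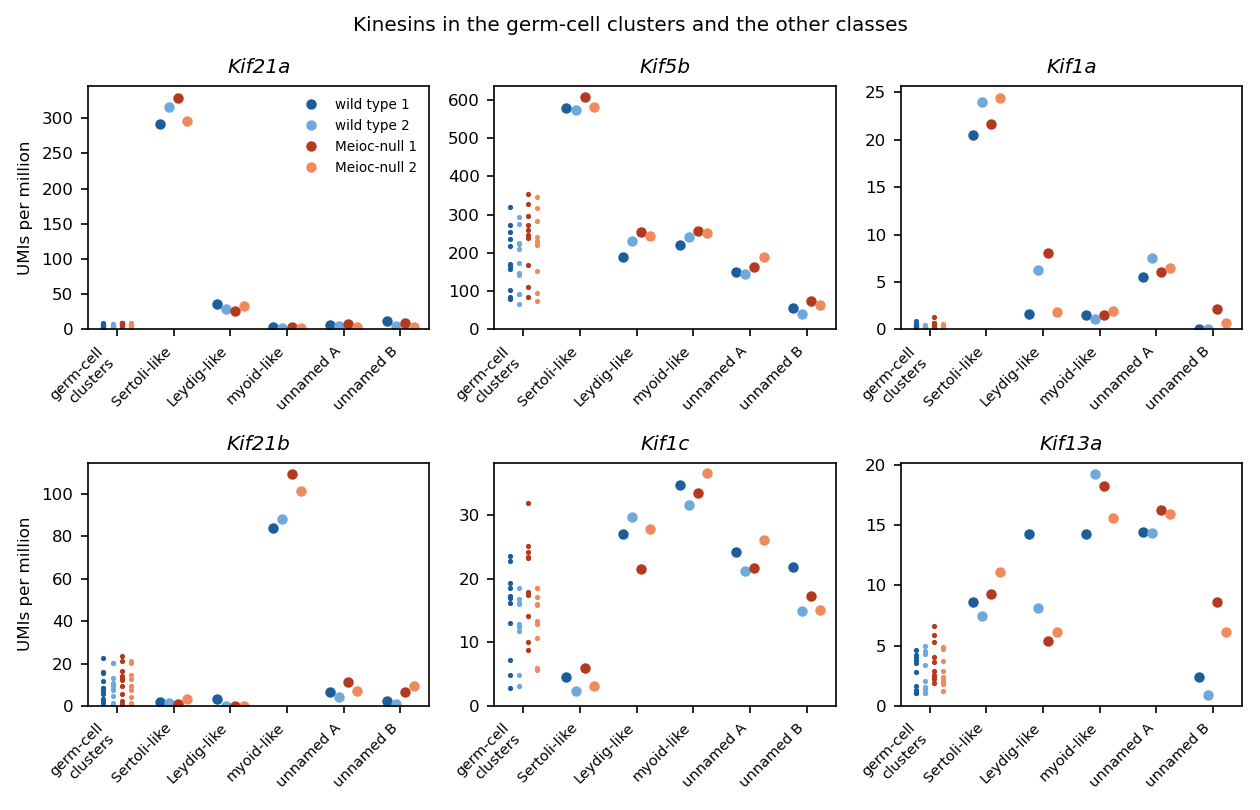
Levels of 6 kinesins in UMIs per 1000000 (CPM) in the germ-cell clusters and in the other classes, with 1 point per library. *Kif21a*, *Kif5b* and *Kif1a* are highest in Sertoli-like cells and *Kif21b* in myoid-like cells, in all 4 libraries.

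In Leydig-like cells, of which there were 20 to 68 per library, *Kif1c* led with a ratio of 1.61, at 27.0 and 29.7 CPM in wild type against 21.4 and 27.7 in *Meioc*-null. *Kif1b*, *Kif5b*, *Kif2a* and *Kif21a* were next, with ratios of 0.940 to 0.489, below the mean of the other classes. In unnamed class A, *Kif13a*, a carrier of endosomal vesicles, led at 14.4 and 14.4 CPM in wild type, a ratio of 1.82. *Kif1b* followed at 115 and 125, a ratio of 1.47, before *Kif1c* (1.18), *Kif1bp* (0.940) and *Kif13b* (0.909). Unnamed class B, whose germ-cell markers were at 75.7% of the germ-cell level, was led by *Kif2c*, *Kif18a*, *Kif20a*, *Kif22* and *Kif11*, with ratios of 3.87, 3.41, 3.27, 3.05 and 2.62. Its 5 leading kinesins were all mitotic motors, on library medians of 2626 to 3545 UMIs per cell. These ratios set a class with germ-cell RNA against a mean of mostly somatic classes. Against all wild-type germ cells, *Kif18a*, *Kif20a*, *Kif22* and *Kif11* stood lower, at 84.9, 80.7, 87.0 and 66.9% of the germ-cell level, and *Kif2c* stood at 109%.

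Between genotypes, 0 members were called by edgeR in Sertoli-like (9 tested), myoid-like (8), unnamed A (4) and unnamed B (2) cells. The same rule called 0.326, 0.0953, 0.0226 and 0.0% of all genes in these classes. At an unadjusted p under 0.05 the members numbered 0, 1, 0 and 0, and DESeq2 called 0 in each. The Leydig-like cells of 2 libraries were too few for a test. *Kif21a* in Sertoli-like cells had a log2 fold change of -0.02 ± 0.15 (edgeR adjusted p = 1), but with a mitochondrial limit of 5% it was called higher in *Meioc*-null (-1.23, adjusted p = 0.0443, with 1.34% of 2019 genes called). That fit rested on 107 to 183 Sertoli-like cells per library, in place of 298 to 444.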

How the data were processed

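Single cells of 4 P15 testes were profiled with a droplet 3′ assay. The deposited files hold UMI counts per gene and barcode, which the authors made with Cell Ranger 4.0.0 before an analysis in Seurat, per the labels' processing notes; the genome is GRCm38. Barcodes with more than 1000 detected genes and less than 10% mitochondrial UMIs were kept (6334 to 8494 per library), and 690 to 996 doublets per library were removed by Scrublet score at 0.8% per 1000 barcodes (the caller's own cut-off marked 2.18 to 4.97%). The 5644 to 7505 cells left had medians of 11701.5 to 14421.5 UMIs per library, and low levels are limited by these counts.

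Wild-type cells were clustered with scanpy 1.11.5 (Python 3.11.15) from 2000 variable genes, with the kinesins and the other listed genes left out, over 30 components centred by batch and 20 neighbours. Germ cells were clustered again at the lowest resolution that gave at least 10 clusters, and all cells were placed by their 30 nearest wild-type cells. Names came from marker lists. UMI counts summed per library and cluster were tested in edgeR 4.0.16 (R 4.3.3; quasi-likelihood, TMM, Benjamini-Hochberg over all genes of a cluster) where every library had at least 50 cells, and p-values measure only the spread of 2 pups per genotype. The littermate pairs come from the labels, and deviations of paired libraries correlated at 0.18 to 0.61 over genes, except in unnamed class B (-0.08). Scripts were tested on simulated counts. Alternatives were DESeq2 1.42.0 and its size factors, other filters, the pair as a block, a Bonferroni correction, each library left out, other cell filters and groupings and, added after the data were seen, leaving out cells with a *Plk1* UMI.

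Values per library are given for each called member at the cluster of its smallest adjusted p, for the 15 members with the most UMIs at their highest wild-type cluster, and for up to 5 members with at least 100 UMIs and the largest ratio in each somatic class. At most 4 called genes are named per companion list, in the order of adjusted p. Values beyond these rules (further clusters of a named member, and members outside the 15) were chosen after they were seen. The members and lists were chosen with earlier results of these data known.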

Additional observations from a re-analysis of the deposited data

Results flagged for a closer look

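The genotype effect differed between clusters 10 and 7, by a test of the difference itself in edgeR, for 10 of 18 members, a share below the 62.9% of all 5500 genes that passed the same test. Values are the log2 fold change (wild type over *Meioc*-null) of cluster 10 minus that of cluster 7. Below 0 stood *Kif4* (-2.27 ± 0.15, adjusted p = 1.13e-18), *Kif23* (-1.54 ± 0.42, adjusted p = 0.0365), *Kif14* (-0.66 ± 0.26, adjusted p = 0.0241), *Kif5b* (-0.47 ± 0.10, adjusted p = 2.64e-05) and *Kif11* (-0.29 ± 0.12, adjusted p = 0.0287), whose excess in *Meioc*-null cells was larger in cluster 10. Above 0 stood *Kif3a* (1.45 ± 0.12, adjusted p = 1.15e-14), which changed sides between the clusters. *Kif20a* (0.94 ± 0.15, adjusted p = 6.32e-07), *Kif22* (0.46 ± 0.15, adjusted p = 0.00734), *Kif2a* (0.38 ± 0.10, adjusted p = 0.000729) and *Kif15* (0.36 ± 0.14, adjusted p = 0.0219) were also above 0. For *Kif20a*, *Kif22* and *Kif15* the excess in *Meioc*-null cells was smaller in cluster 10, and *Kif2a* had log2 fold changes of 0.05 in cluster 7 and 0.45 in cluster 10. Some of these members passed the filter on detection through *Meioc*-null cells alone, which favours a larger excess there. They were *Kif4*, *Kif23* and *Kif14* in cluster 10 and *Kif14*, *Kif20a* and *Kif22* in cluster 7.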

How the results depend on the processing

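Of the 45 calls of a member in a cluster, 15 were kept under every alternative run for them and 30 in every fit that left out 1 library. Over 700 values, 595 kept direction and call and 4 reversed. The littermate pair as a block (replicate block) kept all 45 calls and added calls, which gave 1 called member in cluster 5 and 3 in cluster 6. DESeq2 kept 37 of the 45 and called 6 members in cluster 9 (42.3% of all genes). It lost *Kif3a* in cluster 7, *Kifc5b* in cluster 8, *Kif18a* in cluster 10 and *Kif1b*, *Kif5b*, *Kif20b*, *Kif22* and *Kifc1* in cluster 9. A Bonferroni correction over genes and clusters left 2, 5, 3 and 5 called members in clusters 7 to 10 (0.795, 6.4, 17.1 and 19.2% of all genes), and leaving out cells with a *Plk1* UMI left 7 in cluster 7. Without 1 library the counts ranged from 7 to 10 in cluster 7 (7 without wild-type replicate 1), from 8 to 11 in cluster 8, from 7 to 8 in cluster 9 (7 without wild-type replicate 2 and 7 without *Meioc*-null replicate 2) and from 10 to 14 in cluster 10, where the same fits called 7.93 to 17.6, 36.4 to 43.4, 43.2 to 51.1 and 52.3 to 57.0% of all genes in clusters 7 to 10. Calls were lost without wild-type replicate 1 for *Kif4* and *Kif5b* in cluster 7 and *Kif5b* and *Kif20b* in cluster 9. Without wild-type replicate 2 they were lost for *Kif14* in cluster 8 and for *Kif5b*, *Kif20b*, *Kif22*, *Kifc1* and *Kif1b* in cluster 9. Without *Meioc*-null replicate 1 they were lost for *Kif4* and *Kif5b* in cluster 7 and *Kif5b*, *Kif20b* and *Kifc1* in cluster 9, and without *Meioc*-null replicate 2 for *Kif4* in cluster 7, *Kif20b*, *Kif22* and *Kif1b* in cluster 9 and *Kif20b* in cluster 10. These are beside the losses given with their members above. *Kif1b* in cluster 9 reversed with no doublet removal (-0.021), with 15 neighbours (-0.21), when cells were placed without called genes (-0.25, then called) and with at least 8 clusters (-0.0127). In these 4 groupings clusters 9 and 10 fell into 1 cluster, so values under them are of both together. A mitochondrial limit of 5% gave 1 called member in Sertoli-like cells, *Kif21a* (log2 fold change -1.23, edgeR adjusted p = 0.0443, against -0.02 and uncalled), named after its value was seen; the cause was not tested. Under that limit the germ-cell clusters had under 50 cells in a library and could not be tested. Other scalings moved the median of all genes by under 0.02 on the log2 scale. Members with few UMIs, 13 of 43 in germ cells, were not tested at this depth.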
